A study of Gallus gallus with 22 samples.

Results

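The report covers the within-number tissue difference of broilers: the level of a gene in the jejunum minus its level in the pancreas of the same label number, compared between a control diet and a diet with sugarcane bagasse (SB, the fibrous residue of pressed cane). The study raised male meat-type broilers on a coarsely ground corn diet with either 0% or 2% SB, and RNA of the proximal jejunum and of the pancreas was sequenced on d 24. Numbers found in both tissues were kept, which gave 10 numbers and 20 of the 22 libraries: control 9, 17, 32, 39 and 47 and SB 3, 11, 26, 34 and 41. Each number stands for a pair of libraries. The study took both tissues from the same broiler of a pen, but no label states that the number is that broiler, so the pairs are called numbers here. The study had left out outlier samples that stood apart from their own diet group in a principal component analysis. As further grounds it gives lower performance for the pancreas and a higher RNA concentration for the jejunum. Omission by diet group can narrow the spread within a diet and so favour a small P, which was not tested. Of 17007 genes, 12307 had a mean log2 CPM (counts scaled to a fixed library total) of at least 1 in at least one tissue, and these were compared.

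The proximal jejunum is the main absorbing segment of the small intestine, lined by enterocytes with a brush border, mucus-secreting goblet cells and hormone-secreting cells. The pancreas consists mostly of acinar cells, which make the digestive enzymes, with ducts that secrete bicarbonate and islets that secrete hormones. Its juice empties into the gut ahead of the jejunum, so that both tissues work on the same meal.

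Totals per library ranged from 42998544 to 54841516 counts in the jejunum of the control numbers and from 46363934 to 203039911 in that of the SB numbers. In the pancreas they ranged from 65957320 to 166039437 and from 80467800 to 300479804. Every total was larger than the mean number of clean reads the study reports for its group. The reason is not given in the sources used here. The log2 ratio of the total of the jejunum to that of the pancreas was -0.80 ± 0.62 in control and -1.18 ± 1.33 in SB numbers (SD, n = 5 and 5; two-sided exact permutation test over 252 regroupings, p = 0.563). Averaged over both diets, 5296 genes (43.0%) were higher in the jejunum and 4574 (37.2%) higher in the pancreas at an adjusted p under 0.05 in limma. Defining acinar and islet markers could not be looked up, since symbols were linked to only 121 identifiers, through the genes the study listed. Of the gut markers that were linked and tested, *MYO7B*, the brush border myosin, had means of 9.15 and 9.14 log2 CPM in the jejunum (control and SB) and of 1.92 and 3.49 in the pancreas. *AGR2*, of goblet cells, went the same way (7.47 and 7.62 against 1.82 and 3.44). *GHRL*, of hormone-secreting gut cells, went the other way (-0.32 and -0.40 in the jejunum against 1.31 and 2.45 in the pancreas).

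The shift is the mean tissue difference of the SB numbers minus that of the control numbers, on the log2 scale. A negative shift means that the gene stood lower in the jejunum relative to the pancreas under SB. With the thresholds of the study (absolute value of at least 1, unadjusted P under 0.05), 78 genes were called, which is 0.634% of those tested: 60 with a lower difference in SB (0.488%) and 18 with a higher one (0.146%). This split was not stable: limma-voom called 48 lower and 61 higher, and without control 47 there were 49 lower and 68 higher. No gene passed an adjusted p of 0.05 in limma, where the smallest adjusted p was 0.9995 and 407 genes (3.31%) had an unadjusted P under 0.05. That share is under the 0.05 expected by chance. On the same genes, edgeR's quasi-likelihood test gave 0 adjusted calls and 404 genes at an unadjusted P under 0.05, limma-voom 0 and 485, and DESeq2 3 and 511. All single genes below are therefore called at unadjusted P only. The median shift of all genes was -0.01 and the median absolute shift 0.14, while the within-diet SD of the difference had a median of 0.34, which is larger than that of the jejunum level (0.22) or the pancreas level (0.25). That SD was 0.97 times the root of the summed squares of both tissues' SDs (median over genes), so taking the difference within a number removed little of the spread.

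The called shifts came mostly from the pancreas. Of the 78 called genes, 66 had the larger diet difference in the pancreas and 12 in the jejunum, and in 65 the diet differences of the tissues had opposite signs, which the call on their difference favours. The same shares were not counted over all tested genes, so they cannot be read as particular to the called ones. Within a diet, 60.7% of all tested genes varied more in the pancreas than in the jejunum. Of the 60 lower genes, 41 stood at least 1 log2 unit higher in the pancreas of SB numbers, and 5 stood at least 1 unit lower in the jejunum. Of the 18 higher genes, 10 stood at least 1 unit lower in the pancreas under SB and 1 at least 1 unit higher in the jejunum. In bulk tissue, fewer cells of a type and less RNA per cell cannot be told apart. Of the called genes, 28 had a symbol (24 lower and 4 higher), and 45 were in no list of the study, of which 31 were lower and 14 higher. The symbols are known only because the study listed those genes as changed by diet in a tissue of these same samples, so their calls are no independent evidence. Among the 45 genes outside those lists, 36 had the larger diet difference in the pancreas, again without the share over all tested genes.

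**Figure D1:**
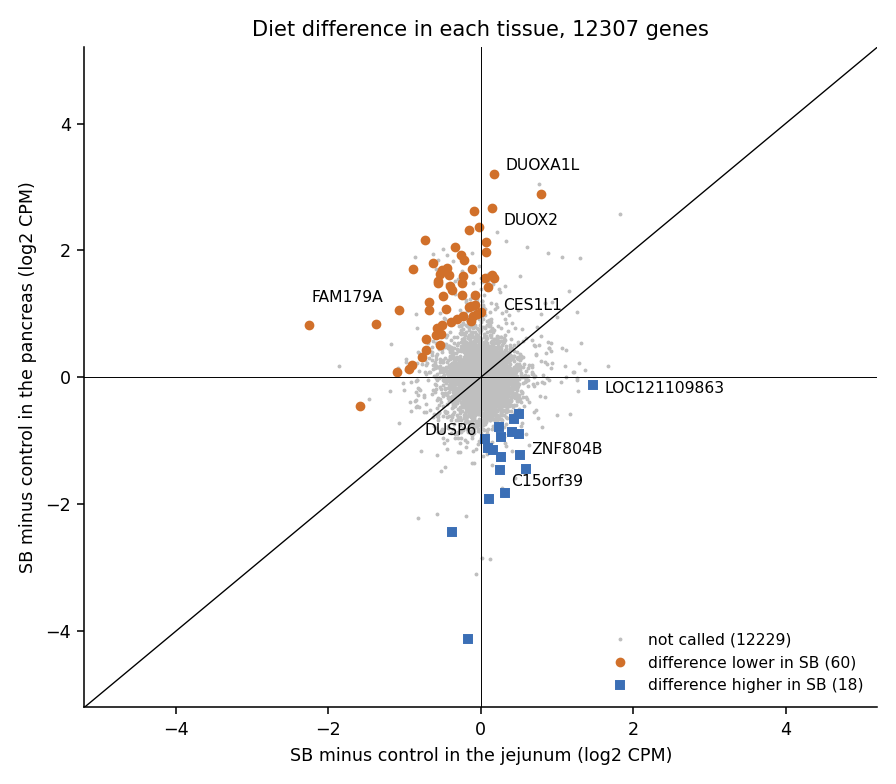
Diet difference (mean SB minus mean control, log2 CPM) in the jejunum on the x axis and in the pancreas on the y axis, 1 point per gene, 12307 genes, with the line of equal differences. The 60 genes with a lower difference in SB (circles) lie above the line and mostly high in the pancreas, and the 18 with a higher difference (squares) lie below it.

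The diets did not overlap at all in 58 genes (0.471%, with 0.309% lower and 0.163% higher in SB). By chance alone, full separation is expected in a share of 0.00794 of genes, which is larger than the share seen. Of the 58 genes, 7 were also called, all 7 lower in SB. *FAM179A* (chromosome 3, 8737382 to 8787541, GRCg7b) was one of them. Its jejunum minus pancreas difference was -2.12, -3.02, -4.09, -4.73 and -2.12 in control 9, 17, 32, 39 and 47, and -4.94, -5.51, -4.95, -5.74 and -5.59 in SB 3, 11, 26, 34 and 41. All SB numbers thus lay below all control numbers, with a shift of -2.13 ± 0.50 (SE; limma P = 0.00142; exact permutation p = 0.00794, the smallest the design allows). Both tissues took part about equally: the mean level was 1.54 log2 CPM in control against 0.47 in SB in the jejunum, and 4.75 against 5.82 in the pancreas. In the jejunum, however, control 17 and 39 (0.43 and 0.37) were within the range of the SB numbers (0.09 to 1.16). The call held when any 1 number was left out, with shifts between -2.51 and -1.86, and DESeq2 gave the gene an adjusted p of 0.0382.

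*CES1L1*, a carboxylesterase of the family that hydrolyses esters and lipids (chromosome 11, 10813223 to 10823606), was the other gene with a symbol and separate ranges. Its difference was 2.93, 3.15, 3.49, 4.44 and 5.31 in the control numbers in the order above and 2.64, 2.77, 2.37, 2.91 and 1.98 in the SB numbers. The jejunum mean was nearly the same under both diets (5.49 and 5.59), and the pancreas mean was 1.63 in control and 3.05 in SB. The shift was -1.33 ± 0.43 (P = 0.0114; exact permutation p = 0.00794). The gap between the diets was narrow, from 2.91 in SB 34 to 2.93 in control 9, and the shift was -0.97 without control 47 and -0.95 in limma-voom, below the threshold of size. Carboxylesterase genes come as near copies, and how reads shared between copies were counted is not given in the sources used here.

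The 2 lower genes with the smallest P had no symbol and separate ranges. The difference of ENSGALG00010028484 was 3.24, 3.22, 3.47, 2.81 and 2.77 in control and 1.95, 1.82, 1.85, 2.23 and 0.99 in SB numbers, a shift of -1.33 ± 0.24 (P = 0.000222, exact permutation p = 0.00794). Its level in the pancreas, 1.36, 1.31, 1.49, 1.31 and 1.75 log2 CPM in control and 2.28, 1.91, 1.84, 2.48 and 2.85 in SB numbers, was higher in every SB number than in any control number. In the jejunum the diets overlapped, with means of 4.55 and 4.04. ENSGALG00010008880 was nearly restricted to the pancreas (means 5.47 and 6.91 log2 CPM), with 8 to 48 counts per jejunum library, and its shift was -1.84 ± 0.42 (P = 0.00118, exact permutation p = 0.00794). Its pancreas levels overlapped between the diets: control 47 (7.53) stood above SB 3, 11, 26 and 34 (5.79, 7.36, 6.79 and 6.99). The ranges separated only in the difference, with the low jejunum counts subtracted. In DESeq2, ENSGALG00010028484 had an adjusted p of 0.00562. The third gene DESeq2 called was a further identifier without a symbol.

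**Figure D2:**
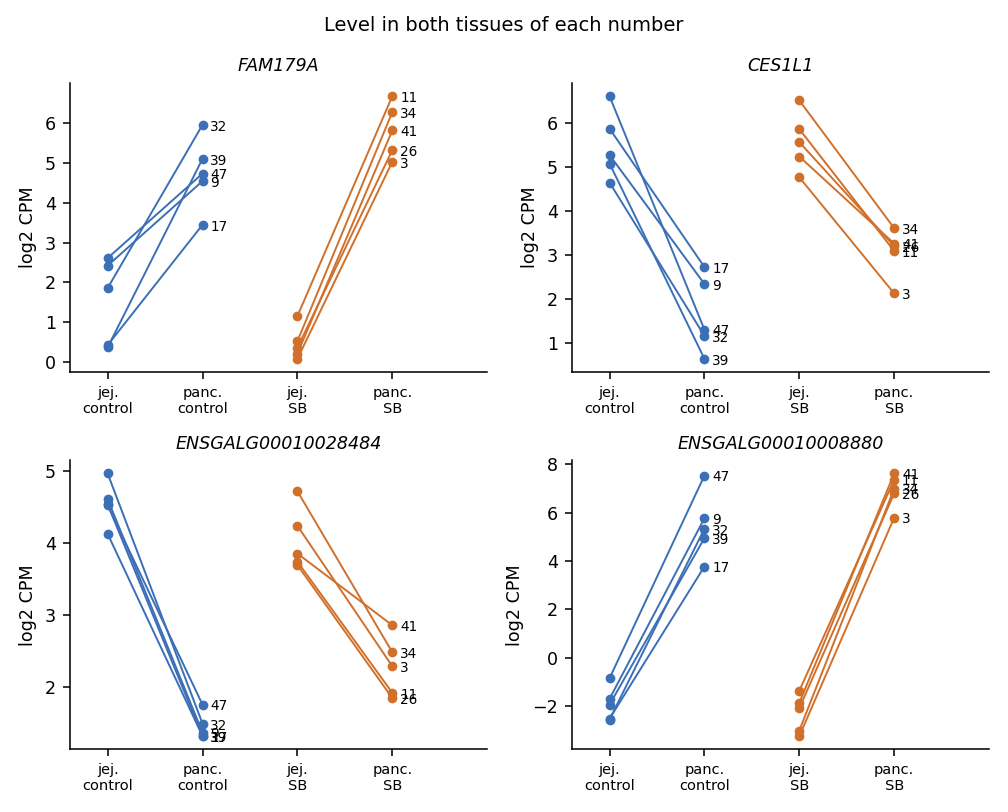
Level (log2 CPM) of 4 called genes whose differences did not overlap between the diets, with a line from the jejunum to the pancreas for each number, control on the left and SB on the right of each panel; labels give the number. The lines of *FAM179A* and ENSGALG00010008880 climb more steeply in every SB number, and those of *CES1L1* and ENSGALG00010028484 fall less.

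The dual oxidase genes had some of the largest shifts among called genes with a symbol. *DUOX2* encodes an oxidase that releases hydrogen peroxide at epithelial surfaces, and *DUOXA1L* (chromosome 10, 1063257 to 1071952) is named for the maturation factors that dual oxidases need to leave the endoplasmic reticulum. In the pancreas *DUOX2* stood at 1.51, 1.20, 2.80, 0.02 and 1.42 log2 CPM in the control numbers and at 5.74, 4.96, 3.49, 1.17 and 4.97 in the SB numbers. SB 3, 11, 26 and 41 were above every control number, whereas SB 34 was within the control range. The jejunum held little of it, -0.45 and -0.31 on average, so that the tissue difference was -0.89, -2.13, -3.86, -1.05 and -1.27 in control and -6.60, -5.06, -3.23, -0.81 and -6.16 in SB numbers, with the ranges overlapping. The shift was -2.53 ± 1.05 (P = 0.0364; exact permutation p = 0.0952). Leaving out control 9, 17, 39 or 47 or SB 3, 11 or 41 ended the call, at shifts from -1.97 to -2.60 and P from 0.052 to 0.0886, and so did limma-voom, at -2.61.

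*DUOXA1L* followed the same order of SB numbers. Its pancreas level was 0.21, -1.07, 1.93, -2.69 and -0.58 in control and 4.50, 3.62, 2.08, -0.47 and 4.12 in SB numbers, with SB 34 again within the control range, and the diet difference in the pancreas was 3.21, a 9.27-fold higher mean. The jejunum had 0 to 14 counts per library, so its side of the difference lies near the floor of the scale. The shift was -3.04 ± 0.99 (P = 0.0113, exact permutation p = 0.0397), and the call held without any 1 number (-3.87 to -2.49) but not in edgeR, at -2.43. *DUOXA1L* passed the level filter only through the SB pancreas (mean 2.77 log2 CPM, against -0.44 in control). Its P and its omissions are therefore no independent support. Strand use in the counting is not given in the sources used here, so that reads of neighbouring genes on the other strand cannot be told apart. Of the other linked redox genes, *PTGS2* (prostaglandin synthase) had a shift of -0.79 (exact permutation p = 0.0952) and *GPX2* (gut glutathione peroxidase) one of -0.89 (exact permutation p = 0.0952), and neither was called.

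**Figure D3:**
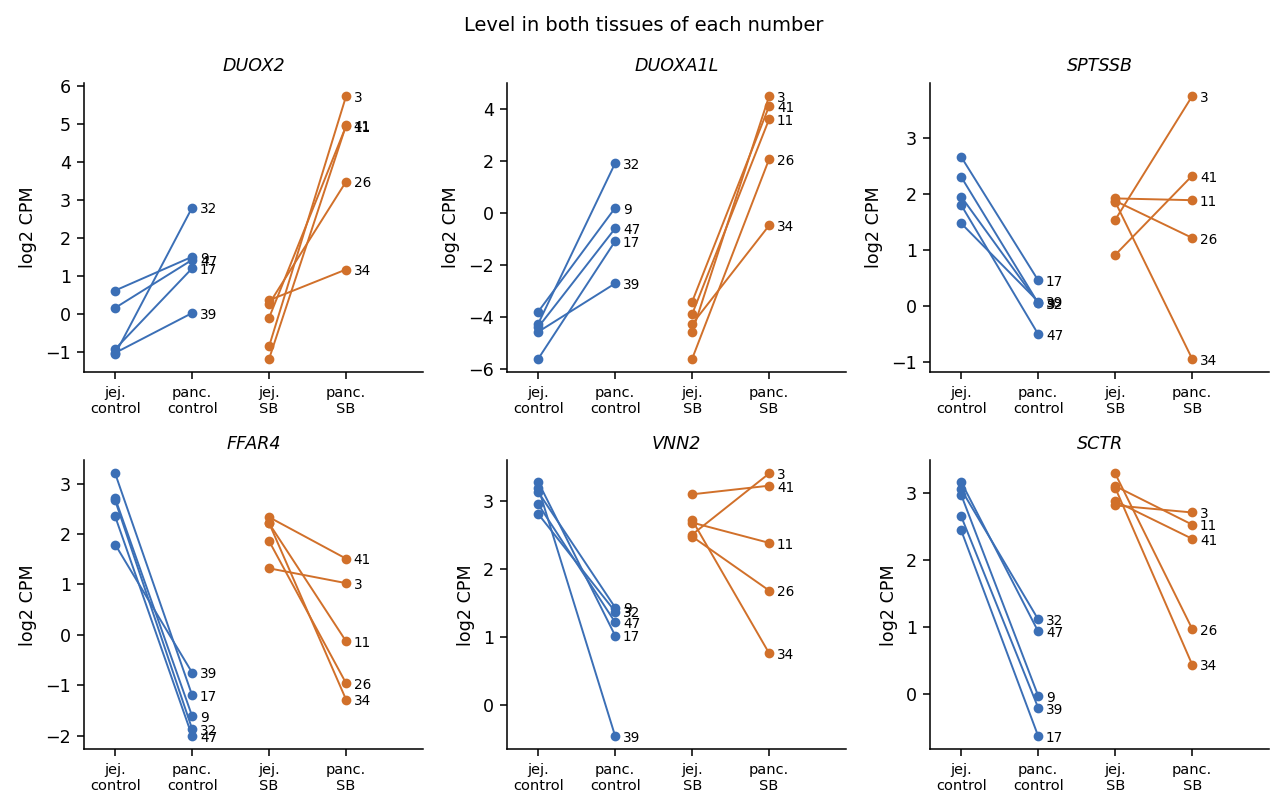
Level (log2 CPM) of *DUOX2*, *DUOXA1L*, *SPTSSB*, *FFAR4*, *VNN2* and *SCTR* in both tissues of each number, drawn as lines from jejunum to pancreas, control on the left and SB on the right of each panel. In the SB pancreas, numbers 3, 11 and 41 stand highest and number 34 lowest in all 6 genes.

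*FFAR4* (chromosome 6, 21193387 to 21199152) encodes a receptor for long-chain fatty acids. Its difference was 4.33, 4.40, 4.54, 2.54 and 4.36 in control and 0.29, 2.34, 2.82, 3.50 and 0.82 in SB numbers; control 39 lay apart from the other control numbers and among the SB values. The jejunum mean was 2.54 in control and 1.99 in SB, and the pancreas mean -1.49 and 0.03. The shift was -2.08 ± 0.64 (P = 0.00801; exact permutation p = 0.0238), with a call in each of the 10 omissions.

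*SCTR* (chromosome 7, 27970711 to 27985387), the secretin receptor, which in mammals drives bicarbonate secretion by the pancreatic ducts, had similar levels in all paired jejunum libraries, between 2.44 and 3.30 log2 CPM. In the pancreas it was -0.03, -0.64, 1.11, -0.21 and 0.93 in control and 2.71, 2.53, 0.97, 0.43 and 2.32 in SB numbers. SB 3, 11 and 41 exceeded all control numbers, and SB 26 and 34 did not. The shift was -1.38 ± 0.50 (P = 0.02, exact permutation p = 0.0635), which was called without any 1 number, at P of at most 0.0499, but not with all libraries thinned to equal depth, at -1.31.

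*SCN3B* (chromosome 24, 2942814 to 2959174), a beta subunit of voltage-gated sodium channels, was close to even between the tissues in SB numbers. The difference was 1.00, 1.14, 1.87, 2.32 and 0.69 in control and 0.72, -0.20, 0.50, -0.29 and 0.03 in SB numbers, where only SB 3 reached the control range. The pancreas level averaged 1.86 in control and 2.96 in SB and the jejunum level 3.27 and 3.12. With a shift of -1.25 ± 0.33 (P = 0.00298; exact permutation p = 0.0159), it was called in all 10 omissions.

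Transporters with a symbol were few. *SLC9A3* (chromosome 2, 55391772 to 55458047), the sodium-proton exchanger of the enterocyte brush border, averaged 7.32 and 7.10 log2 CPM in the jejunum. In the pancreas it was 1.18, -0.13, 0.98, 0.27 and -2.45 in control and 2.34, 1.48, 0.42, 3.34 and 1.52 in SB numbers, with the lowest value in control 47 and the highest in SB 34. Its shift was -2.07 ± 0.88 (P = 0.0387, exact permutation p = 0.0317). The call was lost without control 17 or 47 or SB 3, 11, 34 or 41, with shifts of -1.34 to -2.19 and P up to 0.0972. The related *SLC9A4* had a shift of -2.42 ± 1.11 and was not called (exact permutation p = 0.0794). *SLC22A13L*, named after an organic anion transporter, had a shift of -2.39 ± 0.95 (P = 0.0296, exact permutation p = 0.0476) on 1 to 192 counts per pancreas library, and lost the call without control 17 or 47 or SB 3 or 41 (-1.91 to -2.11). *SLC16A4*, a monocarboxylate transporter family member, had a shift of 1.06 (exact permutation p = 0.183) that lay on the jejunum side, 0.53 against 1.81. It passed the level filter only through the SB jejunum. There SB 26, 34 and 41 stood high (3.07, 2.82 and 2.57 log2 CPM), and SB 3 and 11 (0.28 and 0.34) were within the control range.

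*AGR2*, *CAPN8*, *CAPN9*, *FGFBP1* and *ADAM28* were higher in the jejunum than in the pancreas in all 10 numbers. *AGR2* (chromosome 2, 28469531 to 28473603), a protein disulfide isomerase needed for mucin folding in mice, averaged 7.47 and 7.62 log2 CPM in the jejunum. The pancreas level was 2.02, 1.66, 2.94, 0.74 and 1.76 in control and 4.46, 3.11, 1.91, 3.29 and 4.45 in SB numbers. SB 3, 11, 34 and 41 were above all control numbers and SB 26 was not. The difference, 4.83, 5.90, 4.98, 6.42 and 6.09 in control and 3.26, 3.96, 6.00, 3.97 and 3.70 in SB numbers, shifted by -1.47 ± 0.55 (P = 0.022; exact permutation p = 0.0476). Without control 39 or SB 3 or 41 the P was 0.0509 to 0.0574 (shifts -1.24 to -1.35).

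*CAPN8* (chromosome 3, 17394817 to 17422927) and *CAPN9* (chromosome 3, 40157407 to 40185674) are calpains, calcium-dependent proteases, that in mammals are made by mucus cells of the stomach. *CAPN8* in the pancreas was 0.20, 0.02, -0.49, -2.11 and 0.75 in control and 2.03, 1.36, -0.38, 2.07 and 1.80 in SB numbers, with SB 26 alone among the control values. Its shift was -1.81 ± 0.61 (P = 0.0135, exact permutation p = 0.0397), and it was called in all omissions. *CAPN9* had a shift of -2.48 ± 1.01 (P = 0.0333, exact permutation p = 0.0159), resting on 0 to 339 counts per pancreas library, and it lost the call without control 32 or 47 or SB 3, 34 or 41 (-1.68 to -2.46). Control 47, which had 0 counts in the pancreas, moved it most, to -1.68 when left out.

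*FGFBP1* (chromosome 4, 76114964 to 76117504), a secreted carrier of fibroblast growth factors, had a difference of 4.05, 4.85, 5.05, 6.73 and 6.18 in control and 2.57, 2.77, 4.42, 4.16 and 3.40 in SB numbers. SB 3, 11 and 41 were below all control numbers. The shift of -1.91 ± 0.56 (P = 0.00639, exact permutation p = 0.0238) was called in all omissions but not with no replicate block, and the pancreas mean was 3.95 times higher in SB. *ADAM28*, a membrane metalloprotease, had nearly the same level in every paired jejunum library (6.82 to 7.29 log2 CPM), and its shift of -1.25 ± 0.51 (P = 0.0351, exact permutation p = 0.0238) was lost without control 32, 39 or 47 or SB 3 or 41 (-0.86 to -1.27). *EHF*, an epithelial transcription factor, was not called, with a shift of -1.06 (exact permutation p = 0.103).

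Enzymes formed a further group. *VNN2* (chromosome 3, 56479597 to 56489691), of the pantetheinase family that recycles vitamin B5, had a difference of 1.70, 2.26, 1.44, 3.66 and 1.74 in control and -0.90, 0.30, 0.79, 1.96 and -0.13 in SB numbers, so that in SB 3 and 41 the pancreas exceeded the jejunum. The shift was -1.76 ± 0.55 (P = 0.00941; exact permutation p = 0.0317) and held in all omissions. *SPTSSB* (chromosome 9, 21660614 to 21669326), a small subunit of serine palmitoyltransferase, the first enzyme of sphingolipid synthesis, had tightly grouped control differences of 1.90, 2.20, 2.25, 1.39 and 2.30. In SB numbers they spread widely, at -2.21, 0.03, 0.66, 2.80 and -1.41, from far below to above the control range. The *SPTSSB* shift was -2.03 ± 0.78 (P = 0.0257, exact permutation p = 0.0556), and without SB 3 or SB 41 it was -1.49 or -1.69 and not called (P = 0.0577 and 0.0649).

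*POLN* (chromosome 4, 82397130 to 82487641), a DNA polymerase, was higher in the pancreas than in the jejunum in all 10 numbers. Its pancreas level was 2.99, 2.30, 2.94, 3.58 and 0.83 in control and 3.72, 5.13, 4.15, 3.87 and 3.60 in SB numbers, each SB value above each control value, and the shift was -1.52 ± 0.50 (P = 0.0125; exact permutation p = 0.0238), called in all omissions but not in limma-voom, at -1.04. *RNLS* (chromosome 6, 10141537 to 10205761), renalase, a flavin-dependent oxidase, shifted by -1.21 ± 0.46 (P = 0.0245, exact permutation p = 0.0476). SB 34 and 41 stood highest in the pancreas (3.51 and 2.96 log2 CPM), and without control 9 or 39 or SB 34 the call was lost, at a shift of -0.81 without SB 34.

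*GHRL* (chromosome 12, 19630797 to 19633503), the gene of the hormone ghrelin, had a pancreas level of 1.17, 1.15, 2.08, 0.02 and 2.12 in control and 2.79, 3.44, 2.14, 2.29 and 1.57 in SB numbers. Its shift was -1.22 ± 0.50 (P = 0.0331; exact permutation p = 0.0397), and it was lost without control 39 or SB 3 or 11 (-0.86 to -1.01). *AvBD10* (chromosome 3, 107228064 to 107230692), an avian beta-defensin, an antimicrobial peptide, had a pancreas level of 0.15, 1.63, 2.06, -0.42 and 1.02 in control and 2.93, 2.67, 2.66, 0.94 and 3.75 in SB numbers and only 0 to 16 counts per jejunum library. It passed the level filter only through the SB pancreas (mean 2.59 log2 CPM, against 0.89 in control), so its P is no independent support. Of the *AvBD10* shift of -2.59 ± 1.04 (P = 0.0305, exact permutation p = 0.0714), 6 of 10 omissions (control 9, 39 or 47, SB 3, 26 or 41) ended the call, with P up to 0.0764.

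*SLC22A13L*, *CAPN9*, *ADAM28* and *AvBD10*, described above, and the 4 remaining lower genes with a symbol were chosen after their values were seen. *SOSTDC1*, a secreted inhibitor of bone morphogenetic protein and Wnt signals, shifted by -1.38 ± 0.58 (P = 0.0382, exact permutation p = 0.0476), and by -0.89 without control 47. *ATP10B*, a lipid flippase, shifted by -2.19 ± 0.95 (P = 0.0427, exact permutation p = 0.0635), and by -1.41 without control 47. *ROS1*, a receptor tyrosine kinase, shifted by -1.73 ± 0.76 (P = 0.045, exact permutation p = 0.0556), and by -1.23 without SB 3. *LOC107049808* shifted by -2.06 ± 0.80 (P = 0.0267, exact permutation p = 0.0714), and by -1.56 without control 9. Further omissions that ended these calls were control 39 and SB 3 and 41 for *SOSTDC1*, control 32 and 39 and SB 3, 11 and 41 for *ATP10B*, control 17, 32, 39 and 47 and SB 11 and 41 for *ROS1*, and control 32 and SB 41 for *LOC107049808* (P up to 0.104). Other procedures ended further calls: limma-voom those of *SLC22A13L*, *GHRL*, *ADAM28*, *SOSTDC1*, *ATP10B*, *ROS1* and *LOC107049808*, edgeR those of *AvBD10*, *SOSTDC1* and *ATP10B*, thinning those of *CAPN9*, *SOSTDC1*, *ATP10B* and *ROS1*, a prior count of 0.5 that of *AvBD10*, a mean of at least 1 in both tissues that of *ROS1*, and a fit with no replicate block that of *RNLS*.

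**Figure D4:**
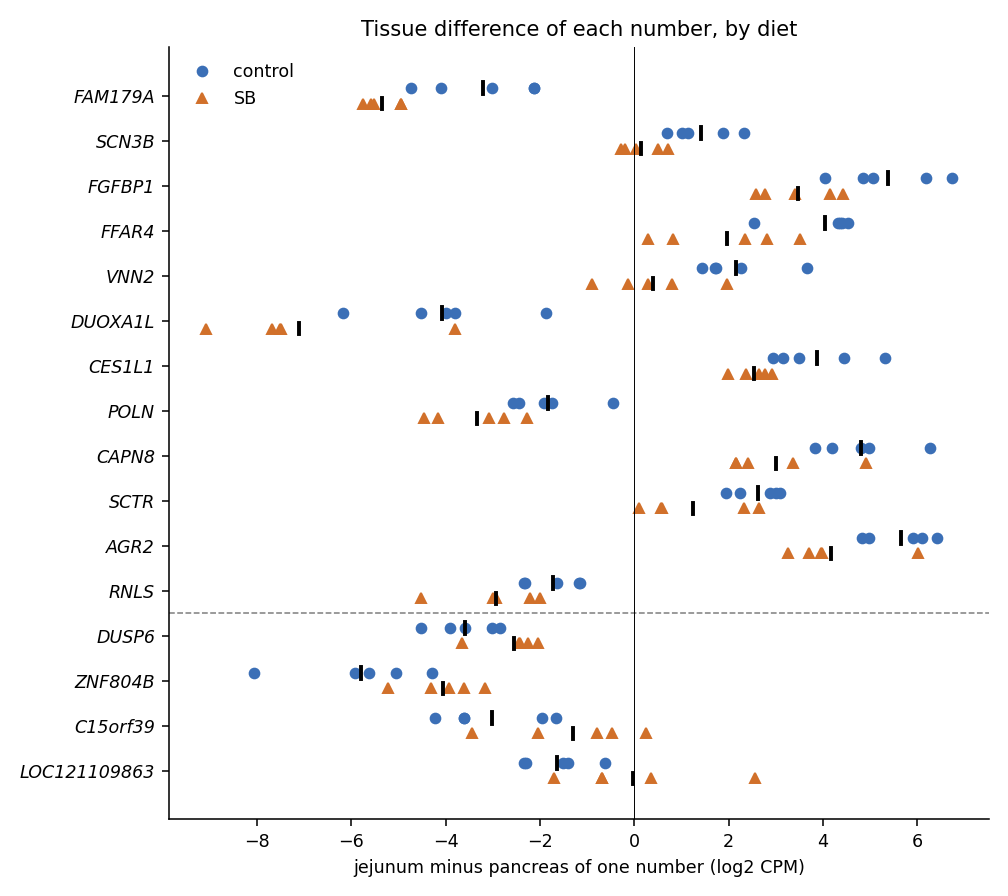
Jejunum minus pancreas difference (log2 CPM, x axis) of each number for the 12 lower genes with a symbol and the smallest P and, below the dashed line, the 4 higher ones; circles are control and triangles SB numbers, 5 of each, and black bars the means. Only *FAM179A* and *CES1L1* have separate ranges, and in *FFAR4*, *AGR2* and *DUSP6* 1 number lies apart from its group.

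The SB numbers did not take part alike. Over the 24 lower genes with a symbol, the pancreas level was above all control numbers in 22 genes in SB 41, in 20 in SB 3, in 19 in SB 11, in 11 in SB 34 and in 10 in SB 26. SB 3 had the highest SB level in 14 of the 24, and SB 26 and SB 34 had the lowest in 9 each. These genes were chosen because the SB values were high, so the counts describe how the numbers share the shift. Without SB 41, 43 genes were called in place of 78, and without SB 26, 124.

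The summed level of jejunum-restricted genes differed between the pancreas libraries. A set of 73 genes had a mean of at least 7 log2 CPM in the jejunum and a tissue difference of at least 6. Their summed level in the pancreas was 1246, 250.1, 205, 224.6 and 118.4 CPM in control 9, 17, 32, 39 and 47 and 335.3, 198.7, 135.7, 2302 and 473.1 CPM in SB 3, 11, 26, 34 and 41. Control 9 and SB 34 stood apart, 1 in each diet, and the log2 sums did not differ between the diets beyond their spread (8.13 ± 1.28 and 8.63 ± 1.58, SD, n = 5 and 5; exact permutation p = 0.563). Of the 73 genes, 4 were called lower, *SLC9A3* and *ROS1* among them (0.488% of all genes tested were called lower), and the median shift of the set was -0.45, against -0.01 for all genes. In the opposite direction, 53 pancreas-restricted genes, chosen by the same limits, summed to between 42.75 and 76.65 CPM in the jejunum libraries (p = 0.437, exact permutation test), and none of them was called.

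In the set, the pancreas level was 0.962%, 0.289%, 0.202%, 3.62% and 1.06% of the jejunum level in SB 3, 11, 26, 34 and 41, and 0.173% to 1.77% in control numbers. For *AGR2* it was 10.5%, 6.44%, 1.56%, 6.39% and 7.67% in the same SB numbers and 1.16% to 3.51% in control numbers. For *CAPN8* it was 22.4%, 9.75%, 3.31%, 18.9% and 22.4%, and 1.3% to 7.04% in control. For *ROS1* it was 11.3%, 2.27%, 1.29%, 1.08% and 4.8%, and 0.292% to 1.8% in control. SB 26 was within the control range for all 3. For *CAPN9*, *ADAM28*, *FGFBP1*, *SLC9A3*, *ATP10B*, *SLC22A13L* and *MYO7B*, SB 3 had the highest share of the 10 numbers, 5.05% to 17.2%, and SB 26 had 0.552% to 4.68%. The set was chosen for a tissue difference of at least 6, which holds its shares low in advance. The mean difference of *AGR2* (5.65 in control and 4.18 in SB) and *CAPN8* (4.81 and 3.00) was below that limit. Their larger shares therefore cannot be set against those of the set. The part of jejunal RNA in the gut-type genes was not tested. Without control 9 and SB 34, an alternative chosen after seeing the data, the shifts were -3.18 for *DUOX2*, -3.85 for *DUOXA1L*, -1.64 for *SCTR* and -1.62 for *AGR2*, all 4 called. SB 34 had the lowest SB pancreas level of *DUOX2*, *DUOXA1L* and *SCTR* (1.17, -0.47 and 0.43 log2 CPM). Leaving it out favours larger shifts of these genes, so their calls here are no independent support. *SLC9A3* (-2.12), *GHRL* (-1.34), *RNLS* (-0.67), *LOC107049808* (-1.52) and 4 of the 6 higher genes named below were then not called, whereas *SLC9A4* (-3.19) and *EHF* (-1.57) were. SB 34 had the highest SB difference of *SLC9A4* (4.40) and *EHF* (5.32). Control 9 had the lowest control difference of *EHF* (4.38) and *AGR2* (4.83). The omission thus favours the calls of *SLC9A4*, *EHF* and *AGR2* as well, and they are no independent support.

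**Figure D5:**
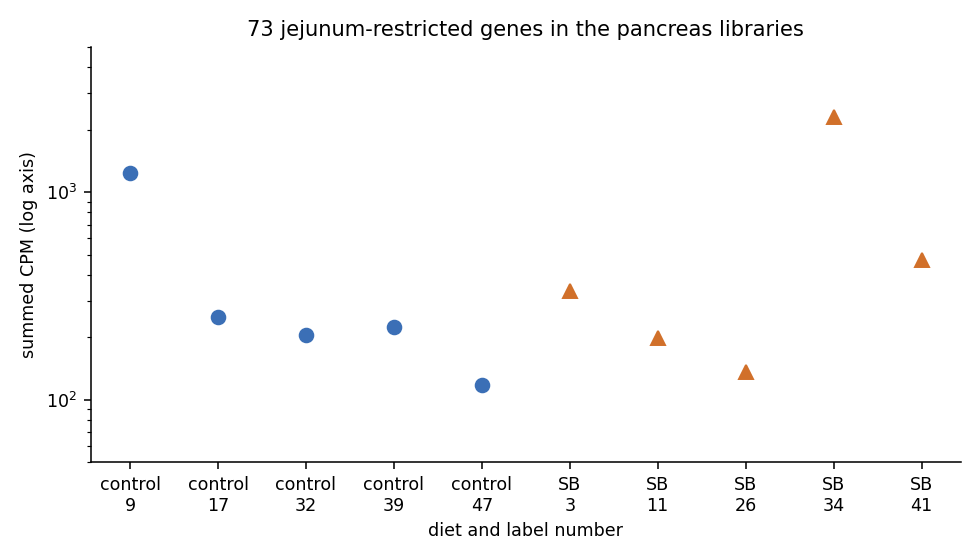
Summed level (CPM, log axis) of 73 jejunum-restricted genes in the pancreas library of each number, circles for control and triangles for SB. Control 9 (1246 CPM) and SB 34 (2302 CPM) stand above the other 8 libraries, which lie between 118.4 and 473.1 CPM.

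Of the 18 genes with a higher difference, 4 had a symbol. *DUSP6* (chromosome 1, 43341540 to 43346237), a phosphatase that switches off the ERK kinases, had a difference of -3.02, -3.91, -4.52, -3.60 and -2.86 in control and -2.43, -2.26, -3.64, -2.44 and -2.03 in SB numbers, with SB 26 apart from the other SB numbers. The pancreas mean was 6.84 in control and 6.06 in SB, and the shift 1.02 ± 0.38 (P = 0.0208; exact permutation p = 0.0556). The call was kept in 4 of 10 omissions: without control 17 or 32 or SB 3, 11, 34 or 41 the shift was 0.79 to 0.99. *ZNF804B* (chromosome 2, 21078968 to 21289929), a zinc finger gene, had a pancreas level of 2.46, 1.69, 1.32, 2.08 and 1.54 in control and 0.33, 0.33, 1.03, 0.29 and 0.97 in SB numbers, with no overlap there. Its jejunum libraries had 0 to 40 counts, and its shift of 1.74 ± 0.64 (P = 0.0212, exact permutation p = 0.0397) was not called without SB 34 (1.52) or in edgeR (1.66). *ZNF804B* passed the level filter only through the control pancreas (mean 1.82 log2 CPM, against 0.59 in SB), so its P and its omissions are no independent support.

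*C15orf39* (chromosome 10, 2372506 to 2378701) had a difference of -3.60, -3.60, -4.23, -1.96 and -1.66 in control and -0.48, -2.04, -3.45, -0.79 and 0.26 in SB numbers, with overlap. Its shift was 1.71 ± 0.73 (P = 0.0402; exact permutation p = 0.0794), lost without control 9, 17 or 32 or SB 3, 34 or 41 (1.32 to 1.58). *LOC121109863* (chromosome 2, 149134730 to 149183900) was the called symbol whose shift came from the jejunum. Its jejunum level was -0.23, 0.31, -0.07, -0.03 and -0.27 in control and 1.14, 1.99, 0.95, 0.80 and 2.21 in SB numbers, every paired SB number above every control number. The SB jejunum library without a partner, number 19, had 0.005 log2 CPM, within the control range. In the pancreas the means were 1.57 and 1.45. The shift was 1.60 ± 0.70 (P = 0.0436, exact permutation p = 0.0794), and without control 9, 17, 39 or 47 or SB 11 or 41 it was not called (0.95 to 1.66), nor in edgeR (1.54), limma-voom (1.41) or without a filter on low values. The 2 higher genes with the smallest P had no symbol. ENSGALG00010002414 had differences of 0.93, 1.35, 1.47, 1.45 and 2.14 and 2.30, 3.18, 1.95, 3.05 and 2.90 (shift 1.21 ± 0.29, exact permutation p = 0.0159), and ENSGALG00010003722 a shift of 2.04 ± 0.56 (exact permutation p = 0.0159), both called in all omissions. With no replicate block, which leaves the pairing by number unused, neither was called, at unchanged shifts. ENSGALG00010003722 passed the level filter only through the SB jejunum (mean 1.41 log2 CPM, against 0.81 in control). Its permutation p and its omissions are therefore no independent support.

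The genes named in the main tables of the study were read as well. Of 16 that passed the level filter, 6 were called lower (*AGR2*, *DUOX2*, *FAM179A*, *FFAR4*, *SCN3B* and *SPTSSB*) and 2 higher (*DUSP6* and *ZNF804B*), and since they were picked on these samples the count is no independent evidence. The others were not called. *WNT9A*, a Wnt ligand, had a shift of 1.28 ± 1.09 (exact permutation p = 0.421) that rested on SB 41, whose difference was 3.59, and without SB 41 it was 0.07. *MHCY6*, of the chicken MHC-Y family, had a higher mean under SB in both tissues, by 1.06 in the jejunum and 1.89 in the pancreas, and its shift was -0.83 (exact permutation p = 0.46). In the jejunum this rested on SB 3 and SB 11 (4.15 and 2.73 log2 CPM). The other SB numbers were within the control range there (-0.18 to 1.47). *MHCY6* passed the level filter only through the SB jejunum (mean 1.56 log2 CPM, against 0.50 in control). MHC-Y genes are near copies of each other, so reads may be split between them. *RFLNA* (2.02, exact permutation p = 0.111), *PLEKHM3* (0.71, exact permutation p = 0.135), *SLC12A5* (0.66, exact permutation p = 0.206), *CGTL* (0.88, exact permutation p = 0.27) and *VEPH1* (0.77, exact permutation p = 0.492) were not called.

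Lists of cell type markers and pathways could not be judged as groups. Of 437 symbols in 16 lists, 21 were linked to an identifier and 15 were tested. These 15 had a symbol only because the study listed them as changed by diet in these same samples. List medians away from that of all genes were therefore favoured in advance and are no evidence of a shift of the lists. Duct cells had 3 members (*SCTR*, *EHF* and *SPP1*, 1 called lower, median shift -1.07), redox enzymes 3 (*DUOX2*, *GPX2* and *PTGS2*, 1 lower, -0.89), nutrient transporters 3 (*SLC9A3*, *SLC9A4* and *SLC16A4*, 1 lower, -2.07) and striated muscle 3 (*MYOM2*, *RYR2* and *TTN*, 0 called, -1.39), against a median of -0.01 for all genes. Of the duct list, *EHF* (6.51 and 6.38 log2 CPM in the jejunum, 1.33 and 2.27 in the pancreas) and *SCTR* (2.86 and 3.04, 0.23 and 1.79) stood higher in the jejunum under both diets. These 2 genes were thus not particular to the pancreas in these libraries, and a change of pancreatic duct cells was not tested. *AGR2* for goblet cells, *GHRL* for enteroendocrine cells and *MYO7B* for enterocytes were the only tested members of their lists, and the first 2 were called. *SPP1*, osteopontin, a duct marker, had a higher mean in SB in both tissues, by 1.15 in the jejunum and 1.37 in the pancreas, and had a shift of -0.21 (exact permutation p = 0.857). Its jejunum libraries had only 0 to 114 counts, near the floor of the scale. There SB 41 had the most, and control 39 (-1.82 log2 CPM) stood above the other SB numbers. Of the muscle genes, *TTN* and *RYR2* each had a single high number: *TTN* in the pancreas of SB 41 was 6.59 log2 CPM against 2.51 to 3.42 in the other 9 numbers, and *RYR2* in that of SB 3 was 4.80 against 0.75 to 2.96. *MYOM2* had a shift of -2.76 (exact permutation p = 0.127) on 0 to 182 counts per pancreas library. Over the omissions its shift lay between -3.62 and -1.81. The lists of acinar cells, islets, smooth muscle, leukocytes, red blood cells, tight junctions, secretory pathway, cell division and lipid synthesis had 0 tested members.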

How the data were processed

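RNA of the proximal jejunum and the pancreas was sequenced with a stranded poly(A) library kit. Reads were cleaned with Trimmomatic, mapped by STAR on GRCg7b and counted per gene by HTSeq, after which the authors deposited whole-number counts of 17007 genes in 22 libraries. The log2 values deposited by the authors are edgeR log2 CPM; computing them anew (prior count 2, scaling by the trimmed mean of M-values of all 22 libraries together) gave 374154 of 374154 values within 1e-06. Columns of all libraries were mapped by their labels, and the number of columns not used was 0.

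Label numbers in both tissues gave 5 control and 5 SB pairs; 2 libraries had no partner. For each of 12307 genes (mean log2 CPM of at least 1 in at least one tissue), the deposited log2 CPM of the pancreas was subtracted from that of the jejunum, and the differences were compared between the diets with limma 3.58.1 in R 4.3.3 (empirical Bayes, variance trend on the mean difference, Benjamini-Hochberg adjustment over all genes). P in the text is the unadjusted limma P, and errors of shifts are its standard errors. For named genes, an exact permutation test (two-sided, 252 regroupings) was added, whose smallest p is 0.00794. The procedure was run on simulated counts with a capped dispersion, no effect of the number and changes placed in the SB jejunum only. That setting differs from these data, so the run does not show how reliable the calls here are.

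The files give Ensembl identifiers only. Symbols were linked by refitting the study's comparison in each tissue and matching fold change and P to the supplementary gene tables, for which 41 of 41 jejunum and 123 of 125 pancreas entries matched 1 identifier; all 41 entries given by identifier fell on their own. Coordinates come from RefSeq on GRCg7b. Named genes are the called genes with a symbol among the 12 smallest P of each direction, list members with P under 0.05, the highest members of each list, the genes of the study's main tables, and the 2 identifiers of smallest P in each direction; the other 8 called genes with a symbol were added after their values were seen. The members, thresholds and lists were chosen with earlier results of these data known. The alternatives were edgeR 4.0.16, DESeq2 1.42.0 and limma-voom with a block, other variance models, scalings, prior counts (0.5 and 5) and filters, binomial thinning to the smallest library, fits without the block, P under 0.01 and each number left out. A variance trend on the mean log2 CPM, and leaving out control 9 and SB 34 together, were added after seeing the data. The intervals and tests cover the libraries at hand, and the depth is given per group in the text. The authors' enrichment results were not used.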

Additional observations from a re-analysis of the deposited data

Results flagged for a closer look

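Within a diet, a number was singled out when its gap to the nearest of the other 4 exceeded the limit of Dixon's test. Over 106 groups of 5 numbers, 10 held such a number, of which 7 were among the 98 gene groups; chance flags about 1 in 20 groups. Among the jejunum minus pancreas differences, control 39 stood apart for *FFAR4* (2.544), nearer to the SB mean than to its own, and for *GHRL* (-0.1851), above all other numbers. SB 26 stood apart for *AGR2* (6.003) and *DUSP6* (-3.642), in both cases within the range of the control numbers. SB 41 stood apart for *WNT9A* (3.59), control 9 for *MHCY6* (-0.3467) and control 47 for *SOSTDC1* (6.866). The log2 ratio of the jejunum total to the pancreas total was -1.878 in control 9, against -0.6354 to -0.2663 in the other control numbers. The summed level of the jejunum-restricted genes in the pancreas was 1246 CPM in control 9 and 2302 CPM in SB 34. The shifts without control 9 and SB 34 are given with the comparison.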

How the results depend on the processing

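The count of called genes was 78 as reported. It was 15 at P under 0.01, 218 without a filter on low values, 32 with a mean log2 CPM of at least 1 in both tissues and 43 with at least 3 in one tissue, where other genes were tested. It lay between 43 (without SB 41) and 124 (without SB 26) when 1 number was left out, and between 68 and 114 under all other alternatives. Adjusted calls were 3 in DESeq2 and 0 under every other alternative and omission. The share of lower genes among the calls was 76.9%, but 44.0% in limma-voom (48 lower, 61 higher) and 61.0% without a filter, and 41.9% without control 47 (49 lower, 68 higher), 53.4% without control 32 and 55.1% without SB 3. The excess of lower calls thus depends on the model and on single numbers; the cause was not tested. Of the 78, 53 were called in limma-voom, 61 after thinning, 61 in edgeR and 75 in DESeq2, and 21 in every omission, *CAPN8*, *DUOXA1L*, *FAM179A*, *FFAR4*, *FGFBP1*, *POLN*, *SCN3B*, *SCTR* and *VNN2* among them. For *DUOXA1L*, which passed the level filter only through the SB pancreas, this is no independent support. Over all alternatives and the 32 called genes that are named, no direction turned, 705 values kept the call and 124 lost it. Of the genes not called, *SPP1* changed sign in DESeq2 (0.96), limma-voom (0.89) and with a prior count of 0.5 (0.67), and over the omissions lay between -0.70 and 0.58; *MHCY6* changed sign in limma-voom (0.32). The tissue difference over both diets gave 8037 to 11598 genes (9631 to 9785 over the omissions), and the depth ratio by diet lay between -0.76 and -0.02 over the omissions and at -0.32 without the most abundant gene of each tissue.

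Same-numbered libraries deviated from their group means with r between -0.001 and 0.26, against -0.23 to 0.17 for other numbers. Of the 10 numbers, 5 exceeded 0.1 and 6 correlated best with their own number. The best match was sought only among the 5 numbers of the same diet, so some such matches arise by chance. The data thus give only a weak hint of pairing. With no replicate block, 72 genes were called (60 shared with the 78) and with no replicate block and all 22 libraries 68 (49 shared). Of the 32 named calls, 28 and 29 were kept; *FGFBP1* (first fit), *RNLS*, ENSGALG00010002414 and ENSGALG00010003722 (both fits) lost theirs.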

Other observations

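The 2 libraries without a partner entered no comparison. The control pancreas library of number 1 lay within the range of the other control pancreas libraries for 25 of the 28 called genes with a symbol and nearer to the control than to the SB mean for 26. Its level was 2.05 log2 CPM for *DUOX2* and 0.49 for *DUOXA1L*, 0.59 for *SCTR* and -0.30 for *SPTSSB*, all below SB 3, 11 and 41. The SB jejunum library of number 19 lay within the range of the other SB jejunum libraries for 18 of the 28 and nearer to the SB mean for 12. For *FAM179A*, whose jejunum level was low in SB numbers, number 19 had -0.07 log2 CPM, and for *LOC121109863*, whose jejunum level was high, it had 0.005 log2 CPM, within the range of the control numbers.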
